A study of Mus musculus with 12 samples.

Results

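This account covers 10 genes of T cell inhibition and exhaustion beside the PD-1 pathway, in MC38 tumors grown in mice: Lag3, Havcr2, Tigit, Cd96, Vsir, Btla, Lgals9, Cd276, Nectin2 and Tox. They were taken by name from the 15170 genes of the deposited table, and all 10 were found, namely 6 receptors, 3 ligands and 1 transcription factor. MC38 is a mouse colon adenocarcinoma cell line that forms tumors in mice. RNA of whole tumor blocks was sequenced after intravenous injection of vehicle (6 libraries) or of BG136 (6 libraries), a soluble β-1,3/1,6-glucan of the seaweed Durvillaea antarctica. All samples were labelled wild type. The sources used here give no mouse strain, age, dose or time of collection, and do not say that each library came from a separate animal. The p-values therefore cover the spread among these libraries, which may be technical.

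Exhausted T cells arise under lasting antigen exposure, as in tumors, and carry several inhibitory receptors at once. Each receptor has ligands on tumor cells, macrophages or dendritic cells. LAG-3 (Lag3) binds MHC class II and the secreted protein FGL1, and TIM-3 (Havcr2) binds galectin-9 (Lgals9) among others. TIGIT (Tigit) and CD96 (Cd96) compete with the activating receptor CD226 for ligands of the nectin family, which includes the poliovirus receptor (Pvr) and nectin-2 (Nectin2). BTLA (Btla) binds HVEM (Tnfrsf14), VISTA (Vsir) acts on both T cells and myeloid cells, B7-H3 (Cd276) is a B7 family protein of tumor and stromal cells, and TOX (Tox) is a nuclear factor of the exhaustion programme.

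The promoters of 4 members are shown as examples of both roles: the receptors Cd96 and Tigit, and the ligands Cd276 and Nectin2. Each runs 5′ to 3′ over 300 bases, from 250 before to 50 after the gene start, in RefSeq's table for GRCm38.p6, a build other than that of the expression table. Capitals mark CG dinucleotides, a motif that reads the same on both strands. Promoter entries were matched for 8 of the 10 members by symbol, and Lag3 and Tox had none.
Cd96, chr16:46120199-46120498, minus strand: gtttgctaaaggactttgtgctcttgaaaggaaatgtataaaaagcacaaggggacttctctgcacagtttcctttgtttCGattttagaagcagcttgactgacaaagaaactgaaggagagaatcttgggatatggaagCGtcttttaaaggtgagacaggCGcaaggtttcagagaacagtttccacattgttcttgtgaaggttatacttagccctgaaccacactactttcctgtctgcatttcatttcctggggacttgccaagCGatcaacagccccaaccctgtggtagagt
Tigit, chr16:43664135-43664434, minus strand: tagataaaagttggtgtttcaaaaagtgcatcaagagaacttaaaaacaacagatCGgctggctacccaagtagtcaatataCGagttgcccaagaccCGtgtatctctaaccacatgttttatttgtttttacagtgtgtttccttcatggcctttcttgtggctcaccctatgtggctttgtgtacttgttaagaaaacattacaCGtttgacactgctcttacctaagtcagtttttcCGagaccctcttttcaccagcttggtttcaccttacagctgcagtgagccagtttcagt
Cd276, chr9:58554984-58555283, minus strand: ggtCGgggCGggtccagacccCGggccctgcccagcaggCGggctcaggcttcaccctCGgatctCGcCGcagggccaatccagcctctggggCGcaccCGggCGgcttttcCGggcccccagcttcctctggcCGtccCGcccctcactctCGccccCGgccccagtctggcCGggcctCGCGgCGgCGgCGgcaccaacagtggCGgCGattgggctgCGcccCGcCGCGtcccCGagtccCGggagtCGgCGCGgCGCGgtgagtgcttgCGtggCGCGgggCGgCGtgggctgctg
Nectin2, chr7:19749524-19749823, minus strand: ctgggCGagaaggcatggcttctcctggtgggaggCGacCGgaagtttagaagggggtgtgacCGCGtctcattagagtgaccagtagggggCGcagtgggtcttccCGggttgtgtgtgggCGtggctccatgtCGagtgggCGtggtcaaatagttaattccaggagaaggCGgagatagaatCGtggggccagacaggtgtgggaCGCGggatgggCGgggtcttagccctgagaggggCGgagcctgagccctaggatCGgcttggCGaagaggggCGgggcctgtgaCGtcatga

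The Cd96 promoter held 4 CG dinucleotides and that of Tigit 5, against 39 in Cd276 and 20 in Nectin2. The median over all 32851 promoters of the table was 7. At least as many as in Cd276 were held by 4.45% of these promoters, as in Nectin2 by 26.5%, as in Tigit by 62% and as in Cd96 by 68.6%. Among the other matched members Havcr2 had 3, Lgals9 4, Btla 5 and Vsir 15. These counts describe the sequences and were not tested against expression.

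Levels are given in FPKM, fragments per kilobase of gene scaled to library size, so that levels of different genes can be set side by side. The difference between BG136 replicates 7 and 9 was smaller than sampling noise, and they were averaged as 1 sample, which left 5 BG136 and 6 vehicle samples. Depth, from whole read numbers recovered from the table, was 14828786 to 18125931 reads in 10 libraries and 33231037 and 32956232 in these 2. The T cell marker list (8 of 9 genes in the table) summed to 38.2 to 131 FPKM in BG136 and 72.1 to 114 in vehicle samples, and no marker was at 0. Macrophage and monocyte markers summed to 1031 to 1596 and 1299 to 1719. Epithelial markers summed to 3.13 to 33.2 and 13.02 to 29.9, with Krt8 and Krt18 at 0 in at least 1 sample. Whether these sums measure tumor cell content was not tested. Skeletal muscle markers ran from 0.869 to 138 and from 0.543 to 186, so some blocks held muscle RNA. Fat cell markers summed to 21.2 to 49.6 FPKM in BG136 and 54.2 to 86.8 in vehicle samples, with no overlap of the sums. Fabp4 alone averaged 29.9 and 49.6. By gene, the groups did not overlap for Fabp4 and Cidec and did overlap for Adipoq and Plin1. Over all genes tested, they did not overlap for 0.229%. The part of muscle and fat RNA in the results below was not tested.

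The members spanned a wide range of levels. Lgals9 stood highest, with a mean of 102 ± 11 FPKM (SD, n = 11 samples of both groups). Vsir followed at 19.2 ± 2.1, Havcr2 at 9.41 ± 1.71, Nectin2 at 6.73 ± 0.55, Cd276 at 5.94 ± 0.85 and Lag3 at 5.85 ± 1.74. Cd96 was at 3.61 ± 1.05 and Tigit at 2.10 ± 0.67. Btla at 0.660 ± 0.165 and Tox at 0.548 ± 0.188 were the lowest. Lgals9 exceeded Vsir, Vsir exceeded Havcr2 and Tigit exceeded Btla in 11 of 11 samples. Cd276 and Lag3 could not be ordered, as Cd276 was the higher in 5 of 11 samples. Havcr2 exceeded Nectin2, and Nectin2 exceeded Cd276, in 9 of 11 samples each, and Btla exceeded Tox in 8.

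The ligands and Vsir varied little from tumor to tumor, and the other receptors and Tox varied more. The ratio of the highest to the lowest sample was 1.34 for Nectin2, 1.41 for Vsir, 1.498 for Lgals9 and 1.597 for Cd276. It was 1.82 for Havcr2, 2.27 for Btla, 2.87 for Cd96, 3.03 for Lag3, 3.92 for Tox and 4.70 for Tigit. Counting error alone was largest where a gene had its fewest reads, in BG136 replicate 6 for Tigit, Tox and Btla. There it was 20% of the value for Tigit (25 reads), 25.8% for Tox (15 reads) and 17.4% for Btla (33 reads). For Vsir and Lgals9 it was at most 2.75% and 2.08%. These errors cover counting only.

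**Figure D1:**
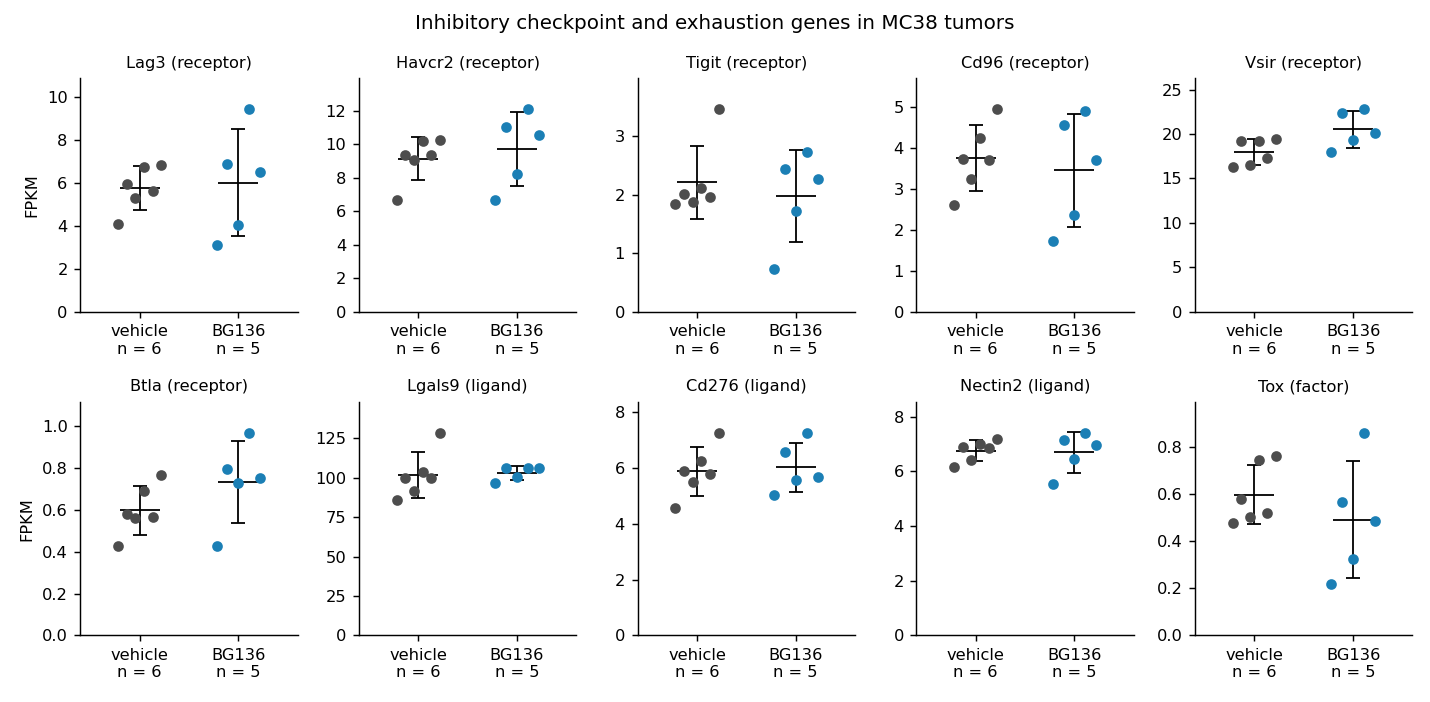
Level in FPKM (vertical axes, from 0, one scale per gene) of each gene in the 6 vehicle samples (grey) and the 5 BG136 samples (blue); points are samples, bars are the mean ± SD. The groups overlap for all 10 genes, and BG136 samples hold the lowest value for 7 genes (Lag3, Havcr2, Tigit, Cd96, Btla, Nectin2 and Tox) and the highest for 7 (Lag3, Havcr2, Vsir, Btla, Cd276, Nectin2 and Tox).

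The comparison of BG136 with vehicle asks whether the glucan given alone shifted these genes, in a study concerned with its use beside an antibody against PD-1. No member passed the test. Of the 10 members 8 had at least 1 FPKM in at least 6 samples and entered limma's moderated linear model of log2(FPKM + 1), with Benjamini-Hochberg adjustment over all 11356 genes tested. Btla and Tox lay under that minimum and were read from the same model without it. With limma 0 of the 8 members had an adjusted p under 0.05, against 0.00% of all genes tested, and 1, Vsir, had an unadjusted p under 0.05, against 2.05% of all genes. voom on recovered reads also called 0, with the same 1 member at an unadjusted p under 0.05. The groups overlapped for each of the 10 members, while they did not overlap for 0.229% of all genes tested. The members' differences split evenly, with 4 above and 4 below 0 and a median of 0.01 on the log2 scale, against 57.4% above 0 and a median of 0.02 over all genes tested.

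Among the receptors, Lag3 was at 4.05, 9.43, 6.48, 3.11 and 6.89 FPKM in BG136 replicates 1, 2, 4, 6 and 7-9. In vehicle samples it ran from 4.08 through a median of 5.77 to 6.84. BG136 held both the highest Lag3 sample, replicate 2, and the lowest, replicate 6. The group means were 5.99 ± 2.50 (SD, n = 5) and 5.74 ± 1.02 (SD, n = 6), yet on the log2 scale the difference was -0.01 (95% interval -0.46 to 0.44; limma adjusted p = 0.999), of opposite sign to that of the means.

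Havcr2, which myeloid cells also express, was at 8.22, 12.1, 10.6, 6.65 and 11.05 FPKM in the same order of BG136 samples. Vehicle samples ran from 6.67 through 9.36 to 10.2. Replicate 6 of BG136 and replicate 11 of vehicle were the low samples, and the log2 difference was 0.06 (95% interval -0.24 to 0.37; limma adjusted p = 0.978).

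Tigit was at 1.72, 2.43, 2.26, 0.737 and 2.73 FPKM in BG136 and at 1.84 to 3.46 in vehicle samples, with a vehicle median of 1.98. The highest sample was vehicle replicate 12 and the lowest BG136 replicate 6. Its log2 difference was -0.14 (95% interval -0.53 to 0.26; limma adjusted p = 0.978). Cd96 was at 2.36, 4.57, 3.71, 1.73 and 4.91 FPKM in BG136 and ran from 2.62 through 3.72 to 4.96 in vehicle samples. BG136 replicates 1 and 6 lay below every vehicle sample and the other 3 within the vehicle range, and the log2 difference was -0.13 (95% interval -0.55 to 0.28; limma adjusted p = 0.978).

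Vsir had the smallest p of the members. It was at 19.3, 20.2, 22.3, 17.9 and 22.8 FPKM in BG136 samples and ran from 16.2 through 18.3 to 19.5 in vehicle samples. BG136 replicates 2, 4 and 7-9 lay above the highest vehicle sample and replicates 1 and 6 within the vehicle range. The means were 20.5 ± 2.1 (SD, n = 5) and 18.0 ± 1.5 (SD, n = 6), a log2 difference of 0.18 (95% interval 0.01 to 0.35; limma unadjusted p = 0.0399, adjusted p = 0.978). By p it ranked 173 among the 11356 genes tested. The macrophage genes did not share 1 direction, with log2 differences of 0.18 for the growth factor receptor Csf1r, 0.05 for Adgre1 and -0.02 for Cd68 (limma adjusted p = 0.978, 0.978 and 0.986). Among the other markers of the macrophage list, Cd14 averaged 16.9 FPKM in BG136 and 19.3 in vehicle samples, and Lyz2 1110 and 1171. Itgam, at 33.7 and 29.6, and Mertk, at 9.03 and 8.30, were higher in BG136. Whether macrophage content took part in the Vsir difference was not tested. In the authors' deposited table Vsir had a log2 fold change of 0.20, a p-value of 0.0106 and a q-value of 0.723, the lowest q-value of the 10 members there. The deposited BG136 base mean counts replicates 7 and 9 as separate libraries. With all 12 libraries counted separately here, limma gave Vsir an unadjusted p of 0.0155 and an adjusted p of 0.914.

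Btla was at 0.753, 0.970, 0.795, 0.427 and 0.726 FPKM in BG136 samples and ran from 0.427 through 0.572 to 0.764 in vehicle samples. All but BG136 replicate 6 lay above the vehicle median, and the groups overlapped. Without the minimum level its log2 difference was 0.11 (95% interval -0.06 to 0.28; limma adjusted p = 0.982). Adding 1 to so low a level understates its change, and voom on recovered reads gave 0.25 (95% interval -0.17 to 0.67; adjusted p = 0.966).

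The ligands lay close together in both groups. Lgals9 was at 101, 106, 106, 96.4 and 106 FPKM in BG136 samples and ran from 85.9 through 99.9 to 129 in vehicle samples. All 5 BG136 samples fell inside the vehicle range, whose top was vehicle replicate 11. Its log2 difference was 0.03 (95% interval -0.16 to 0.22; limma adjusted p = 0.981). Cd276 was at 7.26, 5.02, 6.56, 5.67 and 5.56 FPKM in BG136 samples and ran from 4.55 through 5.84 to 7.25 in vehicle samples. Nectin2 was at 7.15, 5.52, 7.42, 6.97 and 6.44 FPKM in BG136 and ran from 6.18 through 6.88 to 7.18 in vehicle samples. For both ligands BG136 replicate 2 was the lowest BG136 sample, while it was the highest for Lag3, Havcr2 and Btla. The log2 differences were 0.03 for Cd276 (95% interval -0.20 to 0.26) and -0.02 for Nectin2 (95% interval -0.18 to 0.15), with limma adjusted p of 0.982 and 0.986.

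Tox, the exhaustion factor, was at 0.323, 0.486, 0.567, 0.219 and 0.860 FPKM in BG136 samples. In vehicle samples it ran from 0.477 through 0.548 to 0.761. BG136 replicates 1 and 6 lay below every vehicle sample and replicate 7-9 above every one. Without the minimum level its log2 difference was -0.11 (95% interval -0.32 to 0.10; limma adjusted p = 0.982), and voom on recovered reads gave -0.17 (95% interval -0.83 to 0.50; adjusted p = 0.976).

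**Figure D2:**
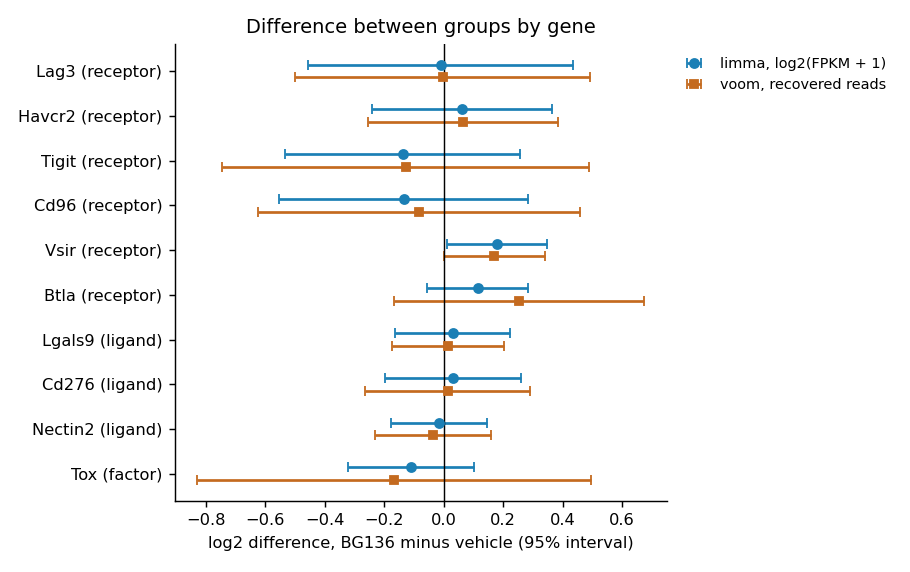
Log2 difference of BG136 minus vehicle (horizontal axis) by gene, with 95% intervals, from limma on log2(FPKM + 1) (blue circles; Btla and Tox without the minimum level) and from voom on recovered reads (orange squares). Both intervals include 0 for all genes but Vsir, at 0.18 and 0.17, whose adjusted p did not pass.

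Several of these small differences changed sign when 1 sample was left out. Without BG136 replicate 6, the sample with the lowest T cell RNA, Lag3 went to 0.16, Tigit to 0.04 and Cd96 to 0.03. Lag3 also turned positive without BG136 replicate 1 (0.09) and without vehicle replicate 2 (4.2e-04), 3 (0.03) or 12 (0.04). Havcr2 went to -0.02 without vehicle replicate 11 and to -0.02 without BG136 replicate 2. Lgals9 went to -0.01 without vehicle replicate 1, Nectin2 to 0.04 without BG136 replicate 2, and Cd276 to -0.03 without vehicle replicate 7 or BG136 replicate 1. Vsir, Btla and Tox kept their sign without any 1 sample.

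In bulk tumor RNA, fewer cells of a type and less RNA per cell cannot be told apart. Each member was therefore set against 2 references over the 11 samples, each a mean of log2(FPKM + 1). These were the mean of the CD3 genes Cd3d, Cd3e and Cd3g of T cells, and that of the macrophage genes Csf1r, Adgre1 and Cd68. The CD3 mean ran from 2.58 in BG136 replicate 6 to 4.27 in BG136 replicate 2, wider than the vehicle range of 3.49 to 4.09. Permutation p-values were two-sided and adjusted over the 20 relations.

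Cd96 followed the CD3 genes most closely among the members. Its Pearson r was 0.92 (permutation p = 1.1e-04, adjusted p = 0.0022) and its Spearman rho 0.90 (permutation p = 3.3e-04, adjusted p = 0.0066). Without BG136 replicates 6 and 2, the samples farthest from the median CD3 level, r was 0.87 (exact permutation p = 0.00282). Within the 6 vehicle samples r was 0.76. No r was computed within the 5 BG136 samples alone, for this or any other member.

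Lag3, Tigit and Havcr2 followed CD3 less evenly. For Lag3 r was 0.75 (permutation p = 0.00685, adjusted p = 0.0457) and rho 0.72 (permutation p = 0.0156, adjusted p = 0.0886). For Tigit r was 0.75 (adjusted permutation p = 0.0987) and rho 0.58 (0.19), and for Havcr2 r was 0.64 (0.109) and rho 0.69 (0.0916). These relations depended on which samples were kept. Without BG136 replicates 6 and 2 together r was 0.35 for Lag3, 0.26 for Tigit and 0.17 for Havcr2. Without BG136 replicate 2 alone it was 0.71, 0.75 and 0.57. Within the vehicle group r was -0.36, -0.20 and -0.43. How these genes went with CD3 within the BG136 group alone was not tested.

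Single samples moved these values. Without BG136 replicate 6 alone r was 0.55 for Lag3, 0.30 for Tigit and 0.38 for Havcr2. Without vehicle replicate 11 alone it was 0.92 for Lag3 and 0.97 for Havcr2, and without vehicle replicate 12 alone it was 0.90 for Tigit. With vehicle replicates 11 and 12 and BG136 replicate 6 all left out, r was 0.89 for Lag3, 0.84 for Tigit and 0.95 for Havcr2. The vehicle samples were singled out after their values were seen, so the higher r is a description and carries no test. In vehicle replicate 11 the CD3 mean was the highest of the vehicle group at 4.09 and Cd96 the highest of all samples at 4.96 FPKM. The same sample had the lowest vehicle levels of Lag3 (4.08), Havcr2 (6.67) and Pdcd1, which encodes PD-1 (2.26 against 4.16 to 6.04 in the other vehicle samples). Over the whole table, vehicle replicate 11 had a chi-square per gene of 37.9 to 57.4 against vehicle replicates 1, 2, 3 and 7. Those were at 9.03 to 18.4 among themselves, and vehicle replicates 11 and 12 were at 12.9. Such distances also occurred in BG136, where replicate 2 was at 44.4 against replicate 1 and 47.9 against replicate 6. It had the lowest vehicle sums of dendritic cell markers (18.5 FPKM) and neutrophil markers (9.18) and the highest of fat cell markers (86.8), whose part in its receptor levels was not tested. Vehicle replicate 12 showed another split, with Tigit at 3.46 FPKM, the highest of all samples, beside the lowest vehicle values of Cd96 (2.62) and Btla (0.427).

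Vsir varied with the macrophage genes. Its r with the macrophage mean was 0.88 (permutation p = 2.6e-04, adjusted p = 0.0026) and rho 0.85 (permutation p = 0.00169, adjusted p = 0.0169). Without the 2 samples farthest from the median, BG136 replicate 7-9 and vehicle replicate 12, r was 0.76 (exact permutation p = 0.0167), and within the vehicle group it was 0.93. Vsir with CD3 gave r = 0.40 (adjusted permutation p = 0.317) and rho = 0.45 (0.287).

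The ligands Cd276 and Nectin2 had negative correlations with CD3 that did not pass, at r = -0.24 (adjusted permutation p = 0.593) and rho = -0.48 (0.25) for Cd276, and r = -0.47 (0.228) and rho = -0.50 (0.243) for Nectin2. Lgals9 had r = 0.48 (0.228) and rho = 0.71 (0.0886) with CD3 and r = -0.07 (0.847) and rho = 0.06 (0.86) with the macrophage mean. Btla and Tox had r = 0.58 (0.163) and 0.65 (0.109) with CD3, with rho of 0.50 (0.243) and 0.42 (0.313). The other macrophage relations did not pass, with adjusted permutation p from 0.163 to 0.826 for r.

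**Figure D3:**
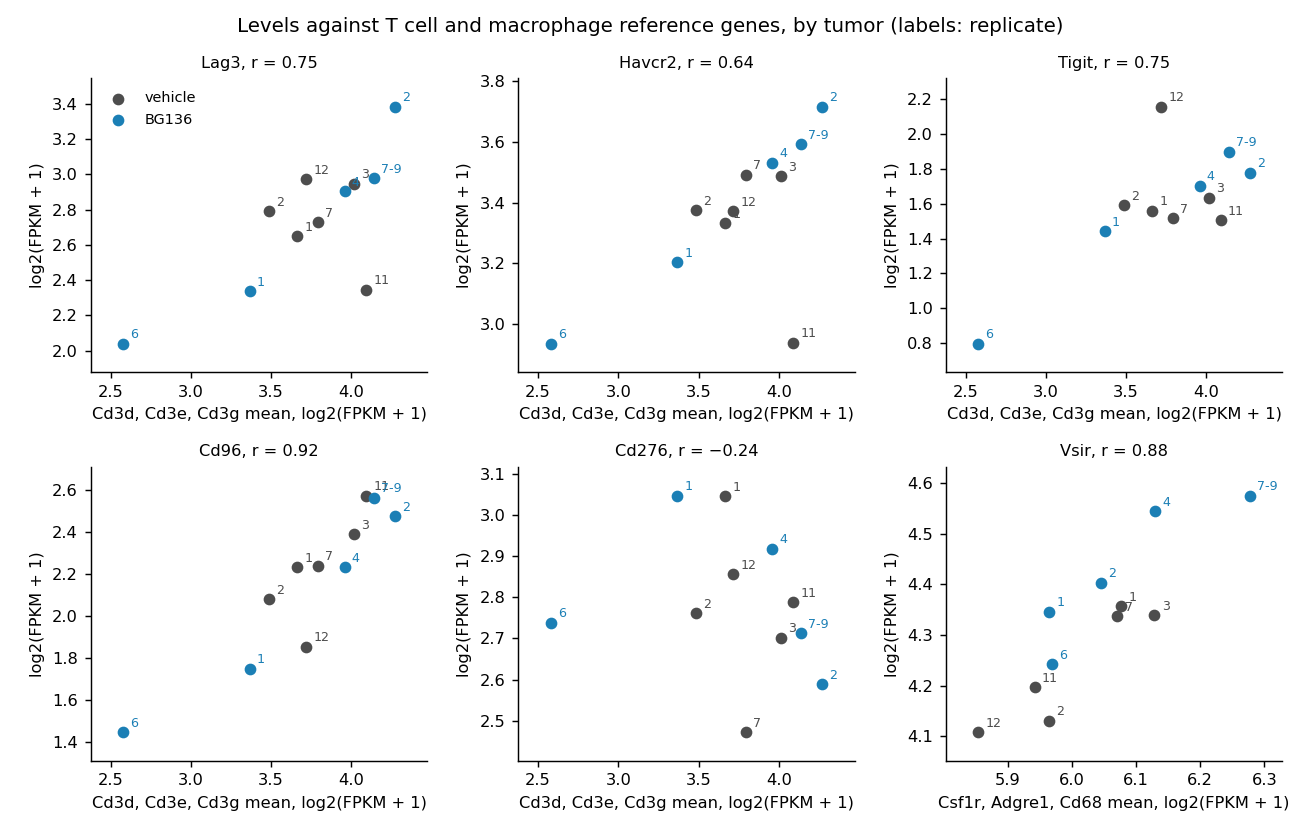
Level of Lag3, Havcr2, Tigit, Cd96 and Cd276 against the mean of Cd3d, Cd3e and Cd3g, and of Vsir against the mean of Csf1r, Adgre1 and Cd68, all as log2(FPKM + 1); each point is a sample, labelled by replicate, grey for vehicle and blue for BG136. Cd96 (r = 0.92) and Vsir (r = 0.88) lie along their reference, vehicle replicate 11 lies low for Lag3 and Havcr2, and vehicle replicate 12 high for Tigit.

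Level per unit of CD3 RNA was then compared, as the log2 ratio of each of 6 genes to the CD3 mean with a pseudocount of 0.1. The ratios do not separate T cell RNA of a gene from its RNA in other cells, such as myeloid cells for Havcr2. A ratio rises where CD3 falls more than the gene does, and the CD3 mean was lowest in BG136 replicate 6 (2.58). BG136 and vehicle did not differ beyond the spread between samples in any of the 6 ratios (exact two-sided permutation test over 462 splits, 11 ratios in all, p not adjusted). For Lag3 the ratio averaged -1.03 ± 0.24 (SD, n = 5) under BG136 against -1.16 ± 0.42 (SD, n = 6) under vehicle (exact permutation p = 0.626). Havcr2 was at -0.27 ± 0.42 against -0.49 ± 0.40 (exact permutation p = 0.444), with BG136 replicate 6 highest at 0.42 and vehicle replicate 11 lowest at -1.24. Tigit was at -2.60 ± 0.18 against -2.52 ± 0.45 (exact permutation p = 0.734) and Cd96 at -1.80 ± 0.21 against -1.77 ± 0.21 (exact permutation p = 0.788). Btla was at -3.83 ± 0.46 against -4.22 ± 0.33 (exact permutation p = 0.134), and Tox at -4.40 ± 0.38 against -4.23 ± 0.38 (exact permutation p = 0.481). BG136 replicate 6, lowest of all samples in Lag3, Tigit and Cd96 RNA, had the highest ratio to CD3 for Lag3, Havcr2, Cd96 and Btla. The difference turned sign for Lag3 without vehicle replicate 11 (-0.03), for Tigit without vehicle replicate 12 (0.07) and for Cd96 without BG136 replicate 2 (0.01).

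**Figure D4:**
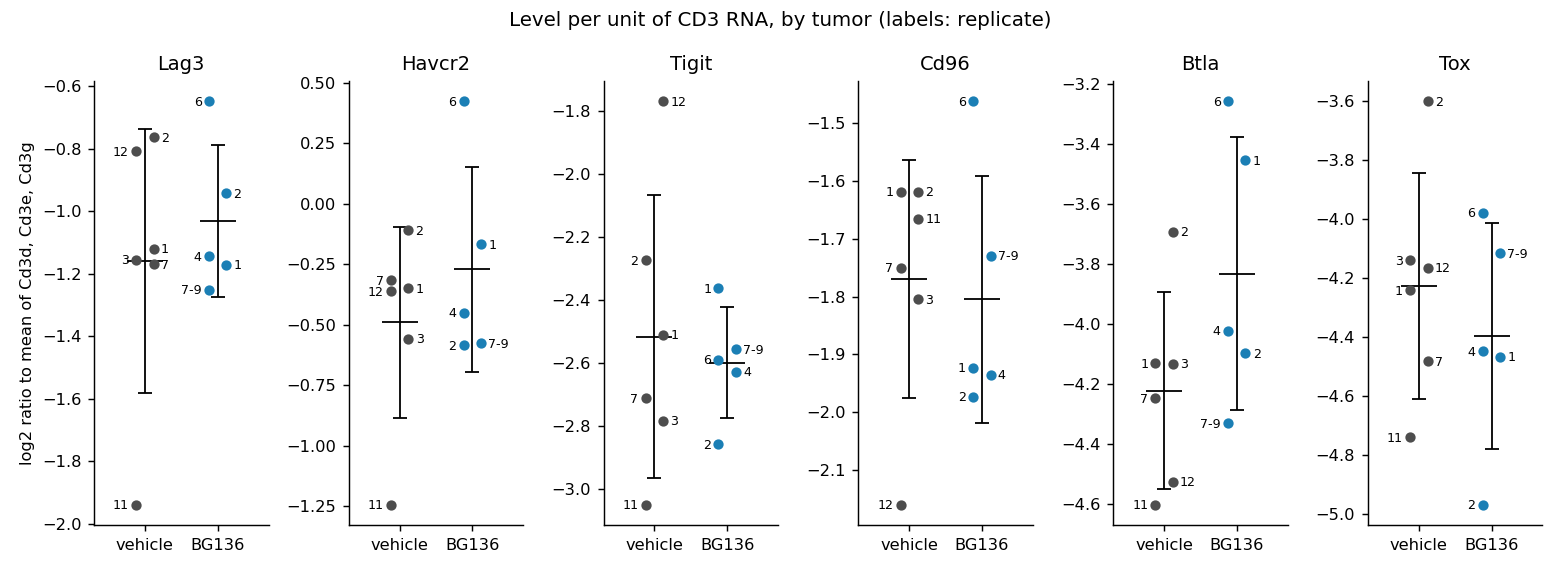
Log2 ratio of each gene to the mean of Cd3d, Cd3e and Cd3g (vertical axes, one scale per gene), by sample and labelled by replicate, for vehicle (grey, n = 6) and BG136 (blue, n = 5); bars are the mean ± SD. The groups overlap in all 6 panels, and vehicle replicate 11 is lowest of all samples for Lag3 (-1.94), Havcr2 (-1.24), Tigit (-3.05) and Btla (-4.60).

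Receptors were also set against their partners. Tigit to Cd226, the inhibitory against the activating receptor for shared ligands, had a log2 ratio of 0.89 ± 0.38 (SD, n = 5) under BG136 against 1.28 ± 0.54 (SD, n = 6) under vehicle (exact permutation p = 0.201). Cd96 to Cd226 was at 1.68 ± 0.31 against 2.03 ± 0.48 (exact permutation p = 0.212). Both inhibitory receptors thus exceeded Cd226 in each of the 11 samples. Cd226 itself lay at 0.477 to 1.35 FPKM. Havcr2 to Lgals9 was at -3.42 ± 0.29 against -3.46 ± 0.39 (exact permutation p = 0.874), Tigit to Nectin2 at -1.82 ± 0.78 against -1.61 ± 0.38 (exact permutation p = 0.615) and Btla to Tnfrsf14 at -4.58 ± 0.17 against -4.66 ± 0.22 (exact permutation p = 0.506). The sign of the Havcr2 to Lgals9 difference turned without vehicle replicate 11 (-0.12), BG136 replicate 2 (-0.04) or BG136 replicate 7-9 (-0.01), and that of Tigit to Nectin2 without BG136 replicate 6 (0.10).

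The wider pathway was read from 2 lists. Of 35 partners and costimulatory genes 32 were in the table and 27 were tested; 20 were higher and 7 lower in BG136, with a median log2 difference of 0.08, and 0 passed limma's test in either direction (2 at an unadjusted p under 0.05). Over all genes tested 57.4% were higher, the median was 0.02 and 2.05% had an unadjusted p under 0.05. Pvr, the main ligand of TIGIT and CD96, was at 20.004 ± 3.4 FPKM (SD, n = 5) against 18.9 ± 2.7 (SD, n = 6). Tnfrsf14 was at 19.6 ± 3.8 against 17.6 ± 3.3, and the lectin Lgals3, also a LAG-3 ligand, at 233 ± 29 against 229 ± 30. Ceacam1, a TIM-3 partner, was at 0.756 ± 0.096 against 0.676 ± 0.213, under the minimum level, and was not among the genes tested. Pvr thus stood above Nectin2 as a nectin-family ligand, and Lgals3 above Lgals9.

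Of 25 exhaustion genes 20 were tested, 12 higher and 8 lower, with a median log2 difference of 0.06 and 0 past limma's test (1 at an unadjusted p under 0.05), beside the same 57.4%, 0.02 and 2.05% over all genes tested. Tcf7, a factor of the stem-like exhausted state, was at 3.34 ± 0.39 FPKM (SD, n = 5) against 3.12 ± 0.18 (SD, n = 6). Eomes, a factor of late exhaustion, was at 1.12 ± 0.24 against 0.972 ± 0.159, under the minimum level, and was not among the genes tested. Entpd1, the ectonucleotidase CD39 of terminally exhausted T cells and of macrophages, was at 14.5 ± 2.9 against 13.1 ± 2.3. Nr4a1, an early response factor downstream of the T cell receptor, was at 4.01 ± 0.49 against 4.56 ± 1.16. The groups overlapped for all tested genes of both lists, and for all but 0.229% of the genes tested in the whole table.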

How the data were processed

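Total RNA of tumor blocks was sequenced as stranded mRNA libraries, per the labels' protocols. The authors deposited 1 table of 15170 genes with FPKM per library. Its header says only expression, so the unit was taken from the values. The authors' other columns came from DESeq2, per the file headers. The deposited base means are a signal averaged over libraries. The deposited linear fold of BG136 over vehicle and its log2 are from the same comparison. So are the deposited p-values and q-values. The submitters' processing notes name Trimmomatic, HISAT2, Cufflinks, HTSeq, DESeq and build GRCm39. The sources used here give no versions, annotation or strand setting for counting, nor the filter behind the table.

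Whole reads were recovered from FPKM and the group base means: 100% of numbers lay within 0.1 of a whole number. BG136 replicates 7 and 9 gave a chi-square of 0.285 per gene, against 7.88 to 57.4 in the other 29 within-group pairs, and were averaged. Tests used limma 3.58.1 in R 4.3.3 with a mean-variance trend on log2(FPKM + 1), two-sided, over the 11356 genes with at least 1 FPKM in at least 6 samples, with a threshold of 0.05. The scripts were tested on simulated data. voom on recovered reads, with summed reads for replicates 7 and 9, was an alternative. Correlations used 100000 permutations, or all permutations with 9 or fewer samples (20000 when 1 sample was left out). Ratios used all 462 splits.

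The members and lists were chosen with earlier results of these data known. The genes named are the 10 members, their reference genes, fixed examples of 2 lists, Pdcd1 and Ctla4 for level, and the 3 genes most alike to each member, of which some are not reported here. Fgl1, Clec4g and Igsf11 had no entry in the deposited table, so no level is given for them.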

Additional observations from a re-analysis of the deposited data

Results flagged for a closer look

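In 6 of 42 sets of values (10 genes and 11 ratios, in each group), 1 sample lay far from the others by Dixon's criterion. Chance meets it in about 1 independent set in 20. The ratios reuse the member genes and the CD3 genes, so these sets are not independent. The count of 6 in 42 therefore cannot be compared with that rate. All 6 concern vehicle replicates 11 or 12. Havcr2 was at 6.67 FPKM in vehicle replicate 11 against 9.07 to 10.2 in the other vehicle samples. Tigit was at 3.46 FPKM in vehicle replicate 12 against 1.84 to 2.11 in the others. The log2 ratio of Lag3 to the CD3 mean was -1.94 in vehicle replicate 11 against -1.17 to -0.76 in the others. The log2 ratio of Cd96 to the CD3 mean was -2.16 in vehicle replicate 12 against -1.80 to -1.62. The log2 ratio of Tigit to Nectin2 was -0.87 in vehicle replicate 12 against -1.86 to -1.51. The log2 ratio of Havcr2 to Lgals9 was -4.25 in vehicle replicate 11 against -3.46 to -3.23.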

How the results depend on the processing

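No member and no gene passed limma's adjusted threshold in any setting run: another pseudocount, no minimum level, voom on recovered reads (325 genes at an unadjusted p under 0.05, against 233), all 12 libraries (441), without each sample (150 to 421), and without vehicle replicates 11 and 12. Vsir kept a positive difference throughout, from 0.14 to 0.22 without 1 sample. It was 0.13 without vehicle replicates 11 and 12 (unadjusted p = 0.1355), and with 6 of the 11 samples left out in turn its unadjusted p was above 0.05. Without 1 sample the log2 difference ran from -0.17 to 0.16 for Lag3, -0.017 to 0.18 for Havcr2, -0.23 to 0.044 for Tigit, -0.25 to 0.027 for Cd96, -0.015 to 0.10 for Lgals9, -0.031 to 0.085 for Cd276 and -0.049 to 0.043 for Nectin2. Ratios ran from -0.028 to 0.21 for Lag3 to CD3, -0.19 to 0.067 for Tigit to CD3, -0.12 to 0.0069 for Cd96 to CD3, -0.38 to 0.10 for Tigit to Nectin2 and -0.12 to 0.14 for Havcr2 to Lgals9. The r with the macrophage mean ran from -0.087 to 0.61 for Tigit, -0.23 to 0.23 for Lgals9 and -0.22 to 0.031 for Nectin2. Signs also turned for Lag3 with all 12 libraries (0.032), for Havcr2 without vehicle replicates 11 and 12 (-0.026), and with a pseudocount of 1 for the ratios of Tox to CD3 (0.021) and Btla to Tnfrsf14 (-0.035). They turned for the r of Lgals9 with the macrophage mean without vehicle replicates 11 and 12 (0.44) and without BG136 replicate 6 as well (0.43). Causes were not tested. Replicate numbers 1, 2 and 7 occur in both groups, and the labels do not say what a number stands for. Deviations of same-numbered samples correlated at 0.49, -0.42 and 0.26. So few pairs with values of both signs cannot decide whether such samples share a block. With the replicate block over these 6 samples 0 genes passed (285 at an unadjusted p under 0.05, against 180 without the block), and the sign turned for Lag3 (0.18), Tigit (0.15) and Cd96 (0.078).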

Other observations

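The genes whose levels were most alike to a member over the 11 samples, by Pearson r of log2(FPKM + 1) among the genes tested, are given as likeness only. All share the same libraries and their depth. For Lag3 they were Klrb1b (r = 0.96) and Klrd1 (0.95), lectin-like receptors of NK and T cells, and the chemokine Cxcl16 (0.94). For Havcr2 they were Il15ra (0.97), the interleukin-15 receptor chain that presents the cytokine, Cxcl16 (0.96) and Nrgn (0.95). For Cd96 they were Septin1 (0.96), the T cell adaptor Sit1 (0.95) and the haematopoietic GTPase Rac2 (0.95). For Btla they were Gpr132 (0.95), Hip1r (0.92) and Pvrig (0.92), which encodes another receptor of nectin-2. For Tigit the values were lower, with Suv39h2 (0.89), Igfbp2 (0.88) and Cwc22 (0.88), as for Tox with Lpar5 (0.86), Hspa12a (0.85) and the interleukin-2 receptor chain Il2rb (0.85). Vsir was most like Abtb2 (0.92) and Pml (0.91), Lgals9 like Agpat2 (0.95) and Mto1 (0.94), Cd276 like Txnrd1 (0.91), Lrrc32 (0.91) and Retnlg (0.89), and Nectin2 like Ipo4 (0.94), Sardh (0.91) and Ergic1 (0.91).

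Among the pathway genes, 3 named here after their values were seen had an unadjusted limma p under 0.05, and none passed after adjustment (limma adjusted p = 0.978 for each). The receptor gene Cd244a was at 1.78 ± 0.21 FPKM (SD, n = 5) under BG136 against 1.35 ± 0.19 (SD, n = 6) under vehicle. The collagen receptor gene Lair1 was at 10.9 ± 2.6 against 8.61 ± 1.09. The transcription factor gene Maf was at 11.2 ± 0.8 against 9.63 ± 1.38. For level, the checkpoint receptors Pdcd1 and Ctla4 were at 3.84 ± 1.56 against 4.48 ± 1.40 FPKM and at 2.59 ± 1.24 against 2.19 ± 0.61.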
